A study of Homo sapiens and Mus musculus with 24 samples.

Results

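The 46 genes described here are the cell cycle and DNA replication genes: named factors that prepare, start and carry out DNA synthesis, drive entry into and passage through mitosis, or hold the cycle back. They were listed by name and role, by a rule that uses no measured value, though with earlier results of these data known. All 46 were found among the 58051 human gene identifiers of the Caco-2 counts, and all 46 among the 29307 mouse genes. By role, 8 belong to origin licensing, 4 to origin firing, 4 to the replication fork and nucleotide supply, 9 to the cyclins, cyclin-dependent kinases (CDKs) and CDC25 phosphatases, 15 to mitosis, 3 to transcription factors and 3 to CDK inhibitors.

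The study asked what loss of the DNA methyltransferase DNMT3A does in intestinal epithelial cells. Caco-2 is an established human colorectal adenocarcinoma line, and 4 groups of it were sequenced: WT, the CRISPR/Cas9 knockout ΔDNMT3A, and ΔDNMT3A cells carrying a TY1-tagged DNMT3A1 or DNMT3A2, the long and the short protein isoform, in a piggyBac vector with a CMV promoter. The knockout and the isoform lines were each grown from a single clone, so that a difference between lines includes whatever set those clones apart. The mouse groups were purified EpCAM-positive colonic epithelial cells of 12-week-old mice at steady state: Dnmt3a fl/fl mice (C57BL/6J background), with exons 13 to 17 flanked by loxP sites, and Dnmt3a ΔIEC mice, which carry the same floxed allele and Villin-Cre, a recombinase driven by an epithelial promoter and bred in from mice of a mixed C57BL/6J and SJL/J background. Both mouse groups share the floxed allele. There were 4 libraries of WT, 4 of ΔDNMT3A, 3 of DNMT3A1 (replicate 3 was not analysed here), 4 of DNMT3A2 and 4 of each mouse group.

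Before a cell divides, each replication origin is licensed once: ORC, CDC6 and CDT1 load the MCM2 to MCM7 helicase onto DNA in G1. CDC45, GINS and MCM10 then turn the loaded helicase into a moving fork. There PCNA clamps the polymerases to DNA, while ribonucleotide reductase (RRM1, RRM2) and thymidylate synthase (TYMS) supply nucleotides. Cyclin E with CDK2 drives S phase entry, and cyclins A and B with CDK1 drive mitosis. E2F factors act on genes of S phase, while FOXM1 and the DREAM and MuvB complexes act on genes of G2 and mitosis through promoter elements called CHR and CCAAT boxes. In the intestine, dividing cells sit in the crypts, and cells that leave the crypt stop cycling. In bulk RNA, fewer cycling cells and less RNA of these genes in each cell cannot be told apart.

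The 15 Caco-2 libraries held between 22104408 and 42161299 counted reads, and the 8 mouse libraries between 16943626 and 24921248. Levels are given as CPM, counts scaled to equal library size after TMM normalization (CPM as edgeR computes it), and intervals and tests cover the spread between these libraries, for which no separate cultures are named. The targeted gene DNMT3A had 64.6 ± 2.27 CPM (SD, n = 4) in WT, 20.7 ± 1.22 (SD, n = 4) in ΔDNMT3A, 37.99 ± 1.23 (SD, n = 3) in DNMT3A1 and 21.9 ± 1.396 (SD, n = 4) in the libraries labelled DNMT3A2, whose range from 20.1 to 23.5 CPM overlapped that of ΔDNMT3A. Whether reads of the tagged transgenes were counted on this gene is not given in the sources used here. Expression of the isoform in the libraries labelled DNMT3A2 thus could not be checked from the counts. The study reports that immunoblots detected the protein of each isoform in its line. The isoform lines are named by their labels throughout. Mouse Dnmt3a had 93.9 ± 7.70 CPM (SD, n = 4) in Dnmt3a fl/fl and 46.1 ± 3.30 (SD, n = 4) in Dnmt3a ΔIEC. Of 7 epithelial markers, all were present in every group, with a summed level from 8560 to 12871 CPM over the Caco-2 libraries. Among the immune markers, MS4A1 had no count in any Caco-2 library and PTPRC at most 1. In Caco-2 the 7 colonocyte markers together stayed between 3.04 and 19.3 CPM, against 10399 to 16891 CPM in the mice, where PTPRC had 1.85 to 4.08 CPM on average per group. Among the Caco-2 members the highest library of a group was a median of 1.05 to 1.07 times the lowest, whereas among the mice this ratio had a median of 1.80 in Dnmt3a fl/fl and 1.97 in Dnmt3a ΔIEC for the 43 members other than the CDK inhibitors.

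Promoter sequences of 5 members are shown because these members were called in opposite directions in the DNMT3A1 and DNMT3A2 lines and represent licensing, firing, cyclins and the spindle checkpoint. The rise of CCNB1 in DNMT3A2 against ΔDNMT3A was only 0.05 on the log2 scale. Each sequence is the stretch of 250 bases just before the annotated start, read 5′ to 3′ on the gene's own strand. The sequences are from RefSeq (GRCh38.p14), with motif letters in capitals. The capitals mark 3 motifs searched on both strands: the CHR element (TTTGAA), the E2F site (TTTCCCGC, TTTCGCGC, TTTGCCGC or TTTGGCGC) and the CCAAT box (CCAAT, which reads ATTGG on the other strand).
MCM3: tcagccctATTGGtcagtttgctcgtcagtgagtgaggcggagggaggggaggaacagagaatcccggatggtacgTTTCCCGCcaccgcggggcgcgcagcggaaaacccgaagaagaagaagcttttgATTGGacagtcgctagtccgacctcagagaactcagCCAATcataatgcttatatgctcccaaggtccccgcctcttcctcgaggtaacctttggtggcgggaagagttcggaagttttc
MCM10: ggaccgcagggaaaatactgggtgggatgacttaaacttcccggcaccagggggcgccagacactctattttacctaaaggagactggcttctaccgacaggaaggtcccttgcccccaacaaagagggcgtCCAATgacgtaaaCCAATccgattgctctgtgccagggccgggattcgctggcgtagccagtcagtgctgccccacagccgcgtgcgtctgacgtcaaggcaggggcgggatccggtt
CCNB1: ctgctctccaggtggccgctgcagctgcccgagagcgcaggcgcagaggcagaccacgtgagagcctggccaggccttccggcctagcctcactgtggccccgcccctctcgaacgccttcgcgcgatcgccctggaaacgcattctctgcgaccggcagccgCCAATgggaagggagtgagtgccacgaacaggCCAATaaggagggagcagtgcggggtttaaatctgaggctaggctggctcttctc
CCNB2: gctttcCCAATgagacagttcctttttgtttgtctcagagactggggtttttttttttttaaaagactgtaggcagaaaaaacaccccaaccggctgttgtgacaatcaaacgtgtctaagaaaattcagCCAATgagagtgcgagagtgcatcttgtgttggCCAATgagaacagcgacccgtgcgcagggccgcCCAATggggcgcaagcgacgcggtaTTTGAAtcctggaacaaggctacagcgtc
BUB1B: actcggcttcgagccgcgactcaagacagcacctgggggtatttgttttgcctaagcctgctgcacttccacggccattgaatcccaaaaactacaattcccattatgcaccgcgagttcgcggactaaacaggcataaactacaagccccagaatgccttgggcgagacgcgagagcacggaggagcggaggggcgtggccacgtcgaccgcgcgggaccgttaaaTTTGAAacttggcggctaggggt
These lie at chr6:52284743-52284992 on the minus strand (MCM3), chr10:13161308-13161557 (MCM10), chr5:69166900-69167149 (CCNB1), chr15:59104896-59105145 (CCNB2) and chr15:40160819-40161068 (BUB1B) on the plus strand. The MCM3 window held 1 E2F site and 3 CCAAT boxes, that of MCM10 2 CCAAT boxes, that of CCNB1 2 CCAAT boxes, that of CCNB2 1 CHR element and 4 CCAAT boxes, and that of BUB1B 1 CHR element. Of the 46 members, 38 had an entry in the promoter table. An E2F site was found in 11 of these 38 windows (28.9%) against 2.79% of all 27305 windows of the same length, a CCAAT box in 28 (73.7%) against 33.0%, and a CHR element in 10 (26.3%) against 13.6%. The E2F site stood in 4 of 6 licensing windows and 1 of 12 mitosis windows, and the CHR element in 0 of 6 and 7 of 12. A match is a string of letters and says nothing of binding, and windows without one lack only these letters.

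**Figure D1:**
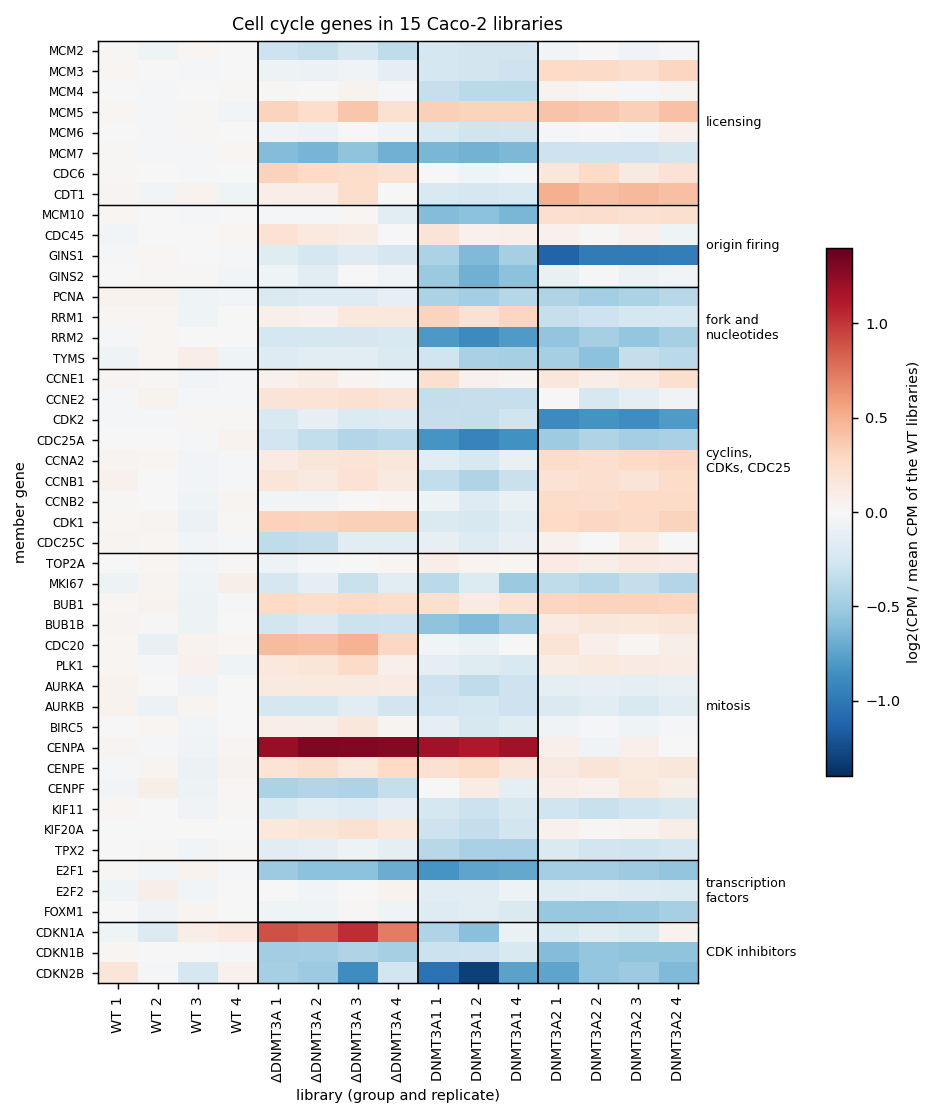
Level of each member (rows, grouped by role) in each of the 15 Caco-2 libraries (columns), as log2 of its CPM over the mean CPM of the 4 WT libraries, red for higher and blue for lower. The replicate columns of a group look alike, CENPA is red in ΔDNMT3A and DNMT3A1 only, CDKN1A is red in ΔDNMT3A, and most rows of DNMT3A1 are blue.

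In WT Caco-2 cells the members spanned a wide range of levels per exonic length. PCNA was the highest (202 CPM per kb), followed by CCNB1 (158 CPM per kb) and the mitotic kinase AURKA (137 CPM per kb). The lowest were CDKN2B (0.747 CPM per kb), CDKN1A (1.86 CPM per kb) and E2F2 (4.21 CPM per kb). Even so, no member fell below 32 counts in any Caco-2 library, and all 46 passed the filter on low counts in every comparison. The summed level of the 43 members that are not CDK inhibitors was 8234 ± 96.4 CPM (SD, n = 4) in WT, 8092 ± 100.3 (SD, n = 4) in ΔDNMT3A, 7101 ± 93.4 (SD, n = 3) in DNMT3A1 and 8143 ± 68.8 (SD, n = 4) in DNMT3A2. The 3 DNMT3A1 libraries, from 7016 to 7201 CPM, lay below all other Caco-2 libraries, while the ranges of the other groups overlapped.

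In ΔDNMT3A, cell cycle genes were called in both directions, near the even balance of all genes. Against WT, 18 of 46 members were higher and 20 lower in ΔDNMT3A, while 31.2% of all 16654 genes tested were called higher and 31.0% lower (the call rule throughout was a Benjamini-Hochberg adjusted p under 0.05 in the quasi-likelihood test of edgeR). The members' median log2 fold change was -0.04, that of all genes tested 0.00. Only CENPA differed by at least 1 on the log2 scale, whereas 8.51% of all genes tested did. The median size of a member's log2 fold change was 0.18, that of all genes 0.24. Within the libraries of sequencing lane 5, 14 members were higher and 20 lower, and within lane 6 they were 15 and 17.

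CENPA, the histone H3 variant that marks centromeres, was the member that moved furthest. Its level was 30.6, 29.3, 28.9 and 30.7 CPM in the WT libraries and 69.7, 74.0, 73.4 and 72.5 CPM in ΔDNMT3A. The groups lay far apart, and the log2 fold change was 1.26 (standard error 0.036, edgeR adjusted p = 2.13e-19). CDKN1A, which encodes an inhibitor of cyclin-CDK complexes, was low in both groups, with 5.46, 4.96, 6.06 and 6.25 CPM in WT against 10.6, 10.3, 11.6 and 9.36 CPM in ΔDNMT3A. Every ΔDNMT3A library was above every WT library, and the log2 fold change was 0.86 (standard error 0.083, edgeR adjusted p = 2.84e-09). The other CDK inhibitors fell. CDKN1B, which restrains cyclin E with CDK2, went from 138 ± 1.73 (SD, n = 4) to 100.5 ± 2.08 CPM (SD, n = 4), and its log2 fold change was -0.47 (standard error 0.027, edgeR adjusted p = 2.11e-13). CDKN2B, an inhibitor of CDK4 and CDK6, went from 3.03 ± 0.347 (SD, n = 4) to 2.13 ± 0.358 CPM (SD, n = 4), and its log2 fold change was -0.52 (standard error 0.13, edgeR adjusted p = 0.00124).

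Licensing genes were uneven in the knockout, with 3 higher, 4 lower and 1 not past the threshold. MCM7, a subunit of the helicase, had 387, 378, 376 and 388 CPM in WT and 250, 243, 259 and 239 CPM in ΔDNMT3A. All ΔDNMT3A libraries lay below all WT libraries, with a log2 fold change of -0.64 (standard error 0.027, edgeR adjusted p = 8.35e-16). MCM2, another subunit, fell by 0.32 on the log2 scale, while MCM5 rose by 0.28 and the loader CDC6 by 0.26, so that subunits of the same complex moved apart. MCM4 stayed within the spread, at 294 ± 2.84 (SD, n = 4) and 296 ± 6.57 CPM (SD, n = 4). Of the 4 fork and nucleotide genes, 3 fell: PCNA with a log2 fold change of -0.18, RRM2 with -0.25 and TYMS with -0.19, while RRM1 rose by 0.10. Of the 4 origin firing genes, CDC45 rose and GINS1 fell, and MCM10 and GINS2 did not pass the threshold. E2F1, a transcription factor of S phase genes, stood at 119 ± 3.74 CPM in WT (SD, n = 4) against 79.3 ± 4.12 CPM in ΔDNMT3A (SD, n = 4), with a log2 fold change of -0.60 (standard error 0.035, edgeR adjusted p = 2.93e-13). E2F2 and FOXM1 did not pass the threshold.

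Genes of the G2 and mitotic machinery were also divided. CDK1, the mitotic kinase, had 362, 364, 335 and 357 CPM in WT and 443, 440, 448 and 448 CPM in ΔDNMT3A, and did not overlap between the groups (log2 fold change 0.32, standard error 0.028, edgeR adjusted p = 4.9e-10). Its partners CCNA2 and CCNB1 both rose by 0.14, and CCNB2 did not pass the threshold (-0.02). Of the 15 mitosis genes, 8 rose and 6 fell. CDC20, the activator of the anaphase-promoting complex, rose by 0.40 (standard error 0.038, edgeR adjusted p = 1.89e-09), from 108 ± 5.28 (SD, n = 4) to 144 ± 8.601 CPM (SD, n = 4). The checkpoint kinase BUB1 rose by 0.25, while its relative BUB1B fell by 0.27. CENPF, a large protein of the outer kinetochore, fell by 0.42, from 381 ± 18.7 (SD, n = 4) to 288 ± 10.2 CPM (SD, n = 4). The proliferation marker MKI67 had 166, 179, 168 and 185 CPM in WT and 148, 159, 140 and 158 CPM in ΔDNMT3A, a log2 fold change of -0.21 (standard error 0.039, edgeR adjusted p = 4.41e-05). TOP2A, the topoisomerase that untangles sister chromatids, was at 744 ± 15.9 (SD, n = 4) and 736 ± 20.8 CPM (SD, n = 4) and did not pass the threshold (log2 fold change -0.03, edgeR adjusted p = 0.397).

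**Figure D2:**
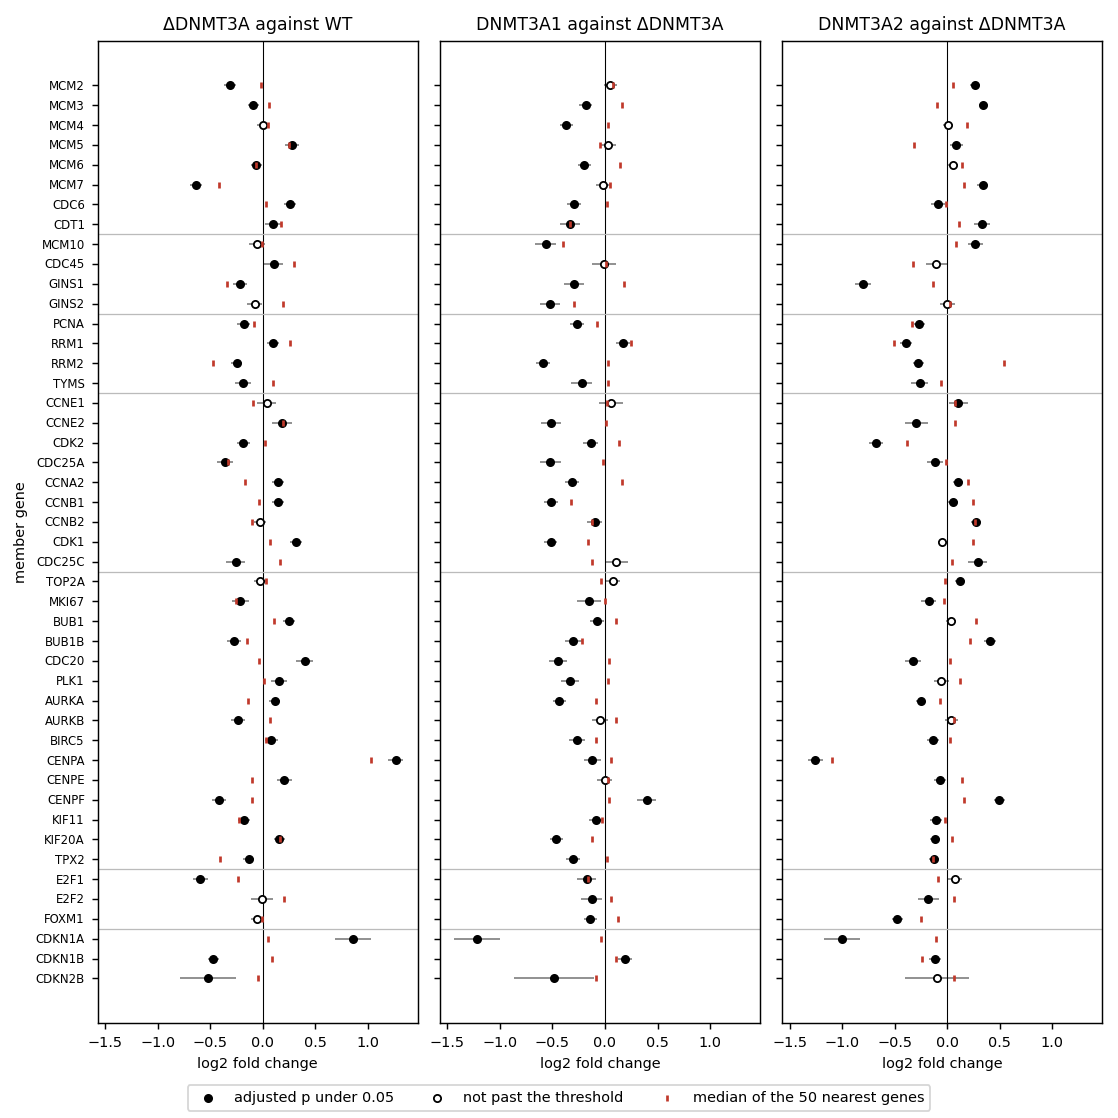
Log2 fold change of each member in 3 Caco-2 comparisons, with bars for the 95% interval. Filled points passed the threshold and open points did not. Red ticks give the median log2 fold change of the 50 tested genes flanking the member in chromosome order. Most points of DNMT3A1 against ΔDNMT3A lie left of 0, and the CENPA point sits beside its red tick in the outer panels.

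In cells carrying DNMT3A1, most cell cycle genes were lower than in ΔDNMT3A. Of 46 members, 34 fell and 3 rose, against 30.3% of all 16860 genes tested that were called lower and 30.4% that were called higher. The median log2 fold change of the members was -0.21, that of all genes 0.01. The changes were modest in size, and CDKN1A alone passed 1 on the log2 scale. Within lane 5 the counts were 28 lower and 5 higher. Lane 6 held only replicate 4 of the DNMT3A1 line, so fits of that line there rest on 1 library and their counts are not given. Without ΔDNMT3A replicate 4, 5 members were higher. In the same lines the 7 enterocyte markers together had 782 ± 29.8 CPM (SD, n = 4) in ΔDNMT3A and 1675 ± 31.0 CPM (SD, n = 3) in DNMT3A1, mostly through DPP4 (544 and 1323 CPM). Of the 6 enterocyte markers tested, 4 were called higher and 2 lower, with log2 fold changes from -2.09 to 2.06. The 6 crypt and stem markers had 136 ± 2.11 CPM (SD, n = 4) and 184 ± 2.69 CPM (SD, n = 3). Of the 5 tested, 4 were called higher and 1 lower. The part of these shifts in the members' levels was not tested.

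All roles took part in the decrease in DNMT3A1 cells. Licensing genes were lower in 5 of 8 cases and higher in none: MCM4, CDT1 and CDC6 fell by 0.37, 0.33 and 0.29 on the log2 scale. Of the 4 firing genes, 3 fell. MCM10, which joins the helicase to the firing fork, had 58.7, 58.9, 61.0 and 53.7 CPM in ΔDNMT3A and 39.4, 40.1 and 38.5 CPM in DNMT3A1, and the groups were well apart (log2 fold change -0.56, standard error 0.048, edgeR adjusted p = 3.83e-09). The GINS subunit GINS2 was at 83.4 ± 4.07 CPM (SD, n = 4) and 58.0 ± 2.99 CPM (SD, n = 3), and its log2 fold change was -0.52 (standard error 0.045, edgeR adjusted p = 4.28e-09). RRM2, the regulated subunit of ribonucleotide reductase, had 221, 220, 222 and 225 CPM in ΔDNMT3A and 150, 141 and 151 CPM in DNMT3A1. It fell by 0.59 (standard error 0.031, edgeR adjusted p = 2.69e-12), while the large subunit RRM1 rose by 0.17 (standard error 0.033, edgeR adjusted p = 0.000181). PCNA fell by 0.27, from 264 ± 6.72 (SD, n = 4) to 219 ± 5.75 CPM (SD, n = 3).

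Of the 9 cyclins, CDKs and CDC25 genes, 7 fell in DNMT3A1 cells. CDK1 was at 445 ± 4.19 CPM (SD, n = 4) in ΔDNMT3A and 311 ± 9.08 CPM (SD, n = 3) in DNMT3A1, a log2 fold change of -0.52, and CCNB1 fell by 0.51, CDC25A by 0.52 and CCNE2 by 0.51. CCNE1 and CDC25C did not pass the threshold. Of the 15 mitosis genes, 11 fell, with KIF20A, CDC20, AURKA and PLK1 at log2 fold changes of -0.46, -0.45, -0.43 and -0.33. MKI67 had 148, 159, 140 and 158 CPM in ΔDNMT3A and 135, 153 and 122 CPM in DNMT3A1. Its ranges overlapped and its change was small (-0.15, standard error 0.056, edgeR adjusted p = 0.0251), whereas TOP2A did not pass the threshold (0.07, edgeR adjusted p = 0.0622). The MKI67 call was lost without ΔDNMT3A replicate 2 (-0.13) or 4 (-0.13) and without DNMT3A1 replicate 1 (-0.14) or 4 (-0.08), and in DESeq2 (-0.15), while TOP2A passed without ΔDNMT3A replicate 4 (0.08). CENPF was the exception, with 384, 409 and 347 CPM in DNMT3A1 against 280 to 303 CPM in ΔDNMT3A, and rose by 0.40 (standard error 0.043, edgeR adjusted p = 1.12e-07). The CDK inhibitors went separate ways. CDKN1A had 4.23, 3.79 and 5.32 CPM in DNMT3A1, below every ΔDNMT3A library, and fell by 1.21 (standard error 0.10, edgeR adjusted p = 4.17e-09). CDKN1B rose by 0.19 (standard error 0.033, edgeR adjusted p = 4.45e-05), and CDKN2B fell by 0.48 (standard error 0.18, edgeR adjusted p = 0.0282), its groups overlapping. The CDKN2B call was lost without ΔDNMT3A replicate 1 (-0.47) or 4 (-0.40) and without DNMT3A1 replicate 1 (-0.46) or 2 (-0.37).

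In the line labelled DNMT3A2, set against the same ΔDNMT3A libraries, members were again called in both directions. Of 46 members, 14 were higher and 22 lower, against 33.8% of all 16431 genes called higher and 34.1% called lower. The median log2 fold change of the members was -0.08. Within lane 5, 12 were higher and 19 lower, and within lane 6 they were 12 and 18. The enterocyte markers together had 594 ± 24.7 CPM (SD, n = 4) in DNMT3A2 and the crypt and stem markers 259 ± 4.55 CPM (SD, n = 4), and their part was not tested. Since both isoform lines were compared with the same ΔDNMT3A libraries, each comparison's values are given on their own. Licensing genes were mostly higher, 5 of 8, with MCM3 and MCM7 up by 0.34 each, CDT1 by 0.33 and MCM2 by 0.27. All 4 fork and nucleotide genes were lower: RRM1 fell by 0.39, RRM2 and PCNA by 0.27 each and TYMS by 0.26. Of the mitosis genes, 3 rose and 9 fell.

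CENPA was at 31.3, 28.9, 31.5 and 30.0 CPM in the DNMT3A2 libraries, against 69.7 to 74.0 CPM in ΔDNMT3A, with a log2 fold change of -1.26 (standard error 0.036, edgeR adjusted p = 4.82e-19). CDKN1A fell by 1.00 (standard error 0.082, edgeR adjusted p = 1.75e-10), to 4.90, 5.07, 4.99 and 5.90 CPM. GINS1 had 67.0, 63.6, 66.7 and 64.3 CPM in ΔDNMT3A and 34.8, 38.3, 38.5 and 38.8 CPM in DNMT3A2, a log2 fold change of -0.80 (standard error 0.037, edgeR adjusted p = 3.58e-15). GINS2, another subunit of the same complex, was at 83.4 and 83.7 CPM and did not pass the threshold. CDK2, the kinase of cyclin E, had 102, 109, 103 and 104 CPM in ΔDNMT3A and 63.5, 65.8, 64.4 and 68.1 CPM in DNMT3A2, a log2 fold change of -0.68 (standard error 0.031, edgeR adjusted p = 2.83e-15). FOXM1 fell by 0.48. The highest changes were those of CENPF, 0.50 (standard error 0.027, edgeR adjusted p = 8.01e-14), and BUB1B, 0.40 (standard error 0.028, edgeR adjusted p = 1.09e-11). MKI67 fell by 0.18 (standard error 0.034, edgeR adjusted p = 8.24e-05) while TOP2A rose by 0.12 (standard error 0.023, edgeR adjusted p = 8.51e-05). CDKN1B fell by 0.11 (edgeR adjusted p = 0.000799), and CDKN2B did not pass the threshold (-0.10, edgeR adjusted p = 0.567).

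**Figure D3:**
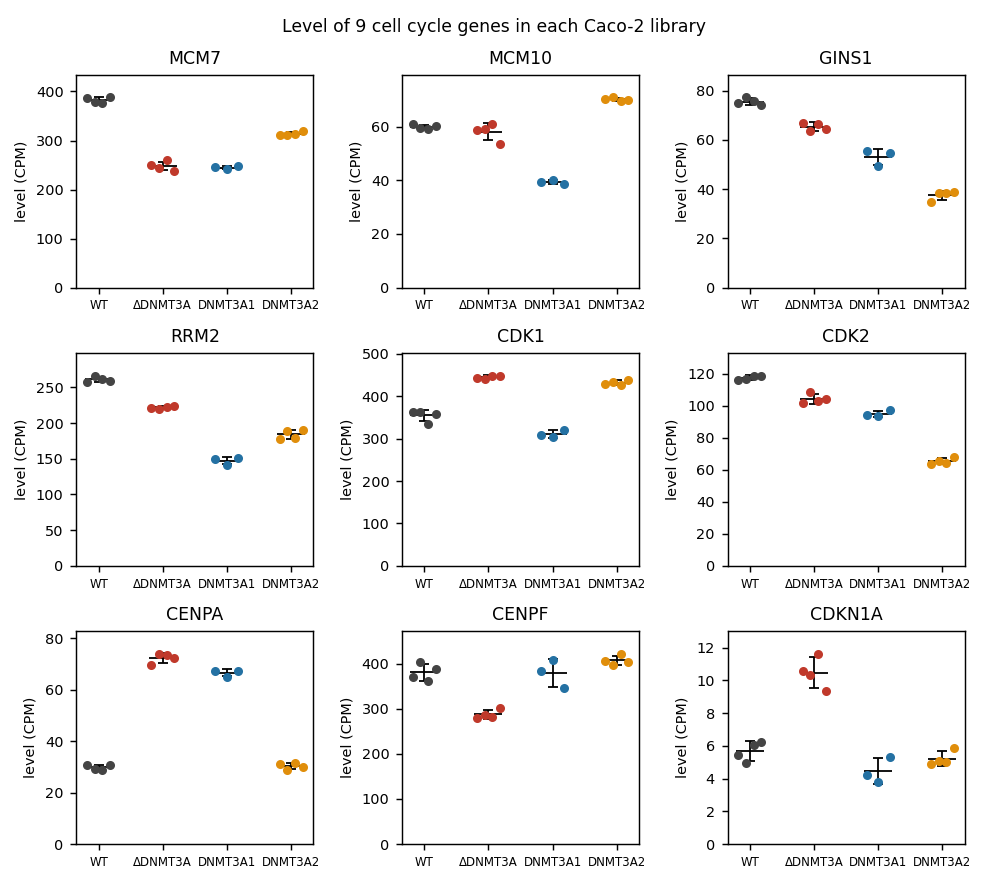
Level of 9 members in CPM (vertical axes, starting at 0) in each library of the 4 Caco-2 groups, with the mean (bar) and SD (whiskers). CENPA sits near 30 CPM in WT and DNMT3A2 and near 70 CPM in the other groups, and MCM10 is lowest in DNMT3A1 while GINS1 and CDK2 are lowest in DNMT3A2.

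Set directly against each other, the isoform lines differed in most members. In DNMT3A2 against DNMT3A1, 28 members were higher and 6 lower, against 33.9% of all 16637 genes called higher and 34.5% called lower, and the median log2 fold change was 0.18. Lane 5 gave 26 higher and 8 lower, and lane 6 held 1 DNMT3A1 library. Of the licensing genes 7 of 8 were higher in DNMT3A2, the exception being MCM5 (0.06, not past the threshold). CDT1 had 112, 107, 108 and 106 CPM in DNMT3A2 against 68.7, 67.3 and 68.4 CPM in DNMT3A1 (log2 fold change 0.67, standard error 0.032, edgeR adjusted p = 9.27e-16). MCM10 differed most among the higher genes, with 70.4, 70.9, 69.6 and 69.9 CPM against 39.4, 40.1 and 38.5 CPM (0.83, standard error 0.037, edgeR adjusted p = 1.45e-16). BUB1B was at 114 ± 1.74 (SD, n = 4) and 69.6 ± 2.53 CPM (SD, n = 3), and CCNB1 at 469 ± 10.6 (SD, n = 4) and 315 ± 11.3 CPM (SD, n = 3), so that neither overlapped.

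Lower in DNMT3A2 than in DNMT3A1 were CENPA (-1.13, standard error 0.041), RRM1 (-0.56, standard error 0.03), CDK2 (-0.54, standard error 0.034), GINS1 (-0.50, standard error 0.048), FOXM1 (-0.33) and CDKN1B (-0.30, standard error 0.032). RRM1 had 181, 185, 190 and 191 CPM in DNMT3A2 and 282, 263 and 280 CPM in DNMT3A1. Of the members named in every comparison, PCNA (0.00), TOP2A (0.05), MKI67 (-0.02), CDKN1A (0.21) and CDKN2B (0.39) did not pass the threshold here, with edgeR adjusted p from 0.0574 for CDKN2B to 0.911 for PCNA. Without DNMT3A1 replicate 4, MKI67 (-0.10), CDKN1A (0.38) and CDKN2B (0.55) passed, and without DNMT3A1 replicate 1 TOP2A did (0.07). MKI67 was at 0.06 without DNMT3A1 replicate 2 and was called lower within lane 5 (-0.10). Within lane 6, which held 1 DNMT3A1 library, MKI67 was at 0.13. The 95% interval of the PCNA difference ran from -0.06 to 0.06.

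Against WT, DNMT3A1 cells had 35 members lower and 5 higher, when 32.7% of all 17029 genes were called lower and 32.6% higher, and DNMT3A2 cells had 19 lower and 17 higher, when 34.4% of all 16360 genes were called lower and 34.3% higher. The median log2 fold change of the members was -0.26 in the DNMT3A1 line and -0.03 in the DNMT3A2 line. Within lane 5 the DNMT3A1 line had 35 members lower and 5 higher, and lane 6 held 1 DNMT3A1 library. CDC25A, the phosphatase that activates CDK2, stood at 63.1 ± 1.44 CPM in WT (SD, n = 4) against 34.6 ± 1.41 CPM in DNMT3A1 (SD, n = 3), with a log2 fold change of -0.87 (standard error 0.043, edgeR adjusted p = 3.05e-15). RRM2, E2F1 and CDKN2B were also lower, with log2 fold changes of -0.83, -0.76 and -0.996. Higher were CENPA (1.15), MCM5 (0.32), RRM1 (0.28), CENPE, a kinetochore motor (0.21), and BUB1 (0.18). In DNMT3A2 against WT, GINS1 had a log2 fold change of -1.02 (standard error 0.035, edgeR adjusted p = 3.44e-21), CDK2 of -0.86, CDKN2B of -0.62 and CDKN1B of -0.58. CDT1 rose by 0.43, MCM5 by 0.37, BUB1 by 0.29 and CDK1 by 0.27. CENPA did not pass the threshold in that comparison (0.01), and neither did CDKN1A (-0.14, edgeR adjusted p = 0.181), whereas CDKN1A was lower in DNMT3A1 than in WT (-0.35, edgeR adjusted p = 0.00968), with overlapping groups. That call was lost without DNMT3A1 replicate 1 (-0.30) or replicate 2 (-0.25). MKI67 was lower than in WT in both isoform lines (-0.36 in DNMT3A1 and -0.39 in DNMT3A2), as was PCNA (-0.44 and -0.45), and TOP2A was higher in DNMT3A2 (0.09) and did not pass the threshold in DNMT3A1 (0.05, edgeR adjusted p = 0.163).

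The genes next to some members moved with them. CENPA lies at chr2:26764289-26801067 (GRCh38, plus strand). Its neighbours were the 50 tested genes flanking it in chromosome order, equal numbers on each side, whatever their distance. They span chr2:24115371-27446481, and 36 rose and 12 fell in ΔDNMT3A. Their median log2 fold change was 1.03 beside 1.26 for CENPA itself. In DNMT3A1 against ΔDNMT3A the median of the flanking 50 was 0.06, with 15 higher and 18 lower, and CENPA had -0.12. In DNMT3A2 against ΔDNMT3A the median was -1.09, with 38 lower and 8 higher. In DNMT3A2 against WT the neighbours' median was -0.07 beside 0.01 for CENPA. DNMT3A itself lies in that stretch, 1.54 Mb from the CENPA start, which CENPA thus shares with the targeted gene. The stretch reaches further on the DNMT3A side, and its genes beyond DNMT3A mostly fell in ΔDNMT3A. CENPA had the sign of its neighbours' median where that median was large, in ΔDNMT3A against WT and in DNMT3A2 against ΔDNMT3A. Over the 46 members, Pearson's r between a member's log2 fold change and its neighbours' median was 0.65 in ΔDNMT3A against WT and 0.39 in DNMT3A1 against ΔDNMT3A. It was 0.62 in DNMT3A2 against ΔDNMT3A and 0.86 in DNMT3A2 against DNMT3A1. Neighbouring genes share libraries, and members on 1 chromosome share neighbours. CENPA had the largest change of any member in all of these but DNMT3A1 against ΔDNMT3A, and r without CENPA was not computed. The neighbours of MCM7 had a median of -0.42 in ΔDNMT3A against WT, beside -0.64 for MCM7. In contrast, the neighbours of CDKN1A had 0.05 beside 0.86, those of CDKN1B 0.09 beside -0.47, those of CDK1 0.07 beside 0.32 and those of CENPF -0.10 beside -0.42.

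Without members whose neighbours moved by a median of 0.3 or more, DNMT3A1 against ΔDNMT3A kept 31 lower and 3 higher of 43, and ΔDNMT3A against WT 15 lower and 17 higher of 40. In DNMT3A2 against DNMT3A1, 15 members had such neighbours, 13 of them with the same sign as the member, and 21 higher and 1 lower remained of the other 31. The lone lower member left was GINS1, picked out here after its value was seen. In DNMT3A2 against WT the count fell from 19 lower to 10 of 37 members, with 17 higher. The part of these neighbourhoods in the members' changes was not tested.

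**Figure D4:**
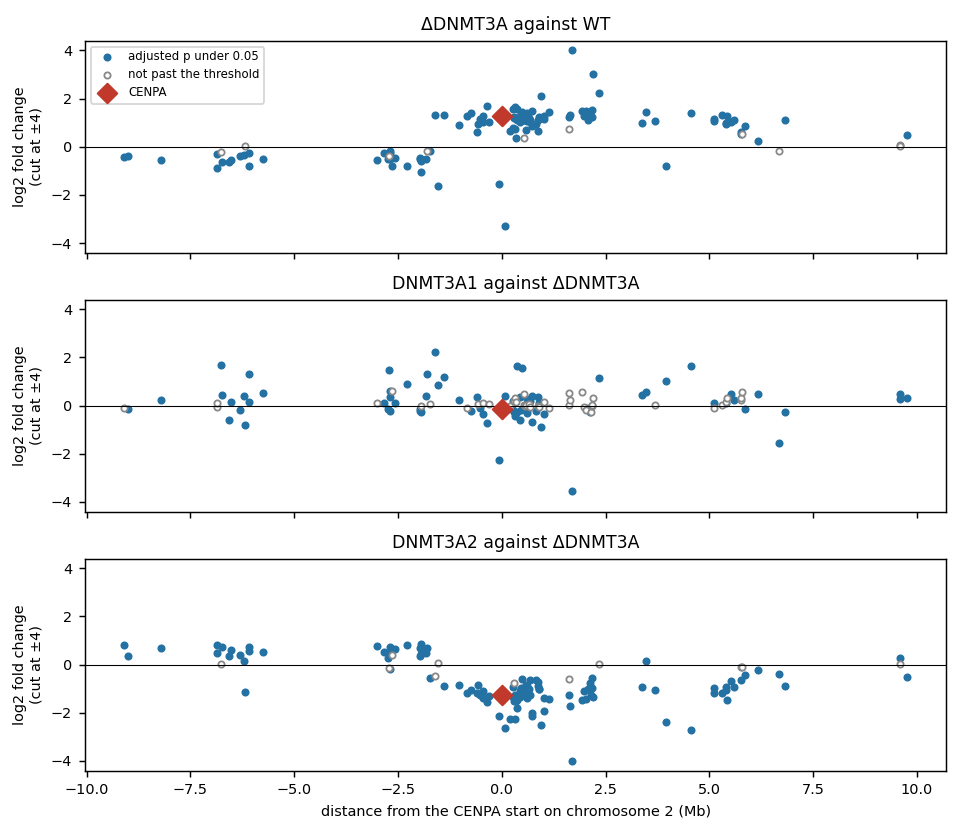
Log2 fold change (vertical axis, values beyond 4 drawn at 4) of every gene tested in all 3 comparisons within 10 Mb of the CENPA start (horizontal axis, distance in Mb); CENPA is the red diamond and filled points passed the threshold. Genes right of about -1.6 Mb sit mostly near 1 in ΔDNMT3A against WT and near -1 in DNMT3A2 against ΔDNMT3A, and scatter around 0 in DNMT3A1 against ΔDNMT3A.

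A further 138 genes of the cell cycle, sorted into 6 lists, gave the setting of the members. In ΔDNMT3A against WT 35 rose and 58 fell, in DNMT3A1 against ΔDNMT3A 36 rose and 72 fell, and in DNMT3A2 against ΔDNMT3A 58 rose and 52 fell. In ΔDNMT3A against WT the RB, E2F, DREAM and MYB list had 13 of 17 lower and 2 higher. Among the lower was TFDP2 (-0.67), a partner of E2F factors. The fork, polymerase and nucleotide list had 13 of 26 lower and 2 higher. Of all genes tested in that comparison, 31.0% were called lower and 31.2% higher. In DNMT3A1 against ΔDNMT3A, 17 of 26 fork, polymerase and nucleotide genes fell and 6 rose, 11 of 16 cyclin and CDK genes fell and 3 rose, 11 of 21 licensing and firing genes fell and 4 rose, and 27 of 52 mitosis genes fell and 16 rose, against 30.3% lower and 30.4% higher of all genes. The RB, E2F, DREAM and MYB list had 6 lower and 4 higher of 17, with a median of 0.02, and the checkpoint list 0 lower and 3 higher of 6. The E2F partner TFDP1 went from 134 to 69.8 CPM (-0.94) and MYBL2, which acts with the MuvB complex, from 258 to 149 CPM (-0.79). Higher in DNMT3A1 than in ΔDNMT3A were the checkpoint kinase ATM (0.59) and the mitotic kinesin KIF18A (0.53). In DNMT3A2 against ΔDNMT3A, 15 of 26 fork, polymerase and nucleotide genes rose and 7 fell. Of all 16431 genes tested there, 33.8% were called higher and 34.1% lower. E2F5 (0.93) and CDK6 (0.76) stood at the top in that comparison, while CCND3 (-0.80), CCND2 (-1.38) and CDKN2C (-1.84) were the lowest.

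Of the other genes, the G1 regulators CCND2 and CDKN1C were among those at the ends of several comparisons. CCND2, a D-type cyclin, had 213 to 240 CPM in WT, 96.7 to 114 CPM in ΔDNMT3A, 64.4 to 71.5 CPM in DNMT3A1 and 38.5 to 42.5 CPM in DNMT3A2. None of these ranges overlapped, and the log2 fold change against WT was -1.13 in ΔDNMT3A, -1.75 in DNMT3A1 and -2.50 in DNMT3A2. CDKN1C, an imprinted CDK inhibitor, had 22.2 to 26.4 CPM in WT, 32.6 to 35.4 CPM in ΔDNMT3A, 7.08 to 8.28 CPM in DNMT3A1 and 25.7 to 28.6 CPM in DNMT3A2. Its log2 fold change was 0.46 in ΔDNMT3A against WT, -2.13 in DNMT3A1 against ΔDNMT3A and 1.77 in DNMT3A2 against DNMT3A1. CCND1 was at 468 CPM in DNMT3A2 and 237 CPM in DNMT3A1 (0.98). Other genes at the ends of the comparisons were ECT2 (0.51) and CCND3 (0.46) at the top and KIF15 (-0.62) at the bottom in ΔDNMT3A against WT. In DNMT3A2 against DNMT3A1, CENPH (0.86) stood with CDKN1C and CCND1 at the top, and KIF18A (-0.77), ECT2 (-0.85) and CDKN2C (-1.997) at the bottom. Against WT, KIF18A (0.71), ECT2 (0.70), ATM (0.64), TFDP1 (-1.12) and CDKN1C (-1.66) marked the ends in DNMT3A1, and HMMR (0.61), E2F5 (0.53), CCND1 (0.50), E2F7 (-0.86) and CDKN2C (-1.94) in DNMT3A2.

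In the mouse colon epithelium none of the 46 members passed the threshold. In Dnmt3a ΔIEC against Dnmt3a fl/fl, 0 members were called higher and 0 lower in edgeR, against 0.602% and 0.0889% of all 14626 genes tested. At an unadjusted p under 0.05 edgeR counted 0 members, against 2058 of the 14626 genes tested, and DESeq2 counted 1 member. That member was Foxm1, named after its value was seen. After adjustment DESeq2 called 0 members, against 259 genes higher and 140 lower of 14626. The members' median log2 fold change was -0.12, that of all genes 0.00, and 14 were above 0 and 32 below. All 15 mitosis genes had negative values, with a median of -0.26, while licensing genes had a median of -0.02. These medians turned on single mice: without Dnmt3a fl/fl replicate 3, 11 of the 15 mitosis genes were below 0, with a median of -0.06, and the licensing median was 0.11. The mitosis median was also smaller without Dnmt3a ΔIEC replicate 3 (-0.16), and larger without Dnmt3a ΔIEC replicate 1 (-0.50) or Dnmt3a fl/fl replicate 4 (-0.43). The licensing median was -0.22 without Dnmt3a ΔIEC replicate 1. The lowest value was that of Foxm1, -0.56 (95% interval from -1.17 to 0.05, edgeR adjusted p = 0.396), and the highest that of Cdkn1b, 0.25 (from -0.05 to 0.55, edgeR adjusted p = 0.436). These intervals do not leave out changes as large as those of many members in Caco-2 cells.

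The spread among mice of 1 genotype was wide and shared by the members. Mki67 had 276, 201, 429 and 179 CPM in the Dnmt3a fl/fl mice and 274, 203, 140 and 159 CPM in the Dnmt3a ΔIEC mice. The genotypes overlapped, 1 Dnmt3a fl/fl mouse stood above all others, and the log2 fold change was -0.48 (95% interval from -1.11 to 0.14, edgeR adjusted p = 0.466), or -0.17 without that mouse. Top2a followed the same order, with 154, 109, 210 and 93.0 CPM against 171, 118, 78.4 and 85.9 CPM (-0.32, from -0.95 to 0.32, edgeR adjusted p = 0.658). Pcna was tighter, with 65.6, 55.8, 68.4 and 57.8 CPM against 70.8, 66.9, 55.1 and 66.1 CPM (0.06, from -0.17 to 0.29, edgeR adjusted p = 0.824). Of the 43 members other than the CDK inhibitors, 40 were highest in the same Dnmt3a fl/fl mouse within its group, and 39 were highest in the same Dnmt3a ΔIEC mouse. Their summed level was 1490, 1150, 1967 and 1093 CPM in the Dnmt3a fl/fl mice and 1657, 1328, 942 and 1010 CPM in the Dnmt3a ΔIEC mice.

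Markers of crypt cells varied across the same mice. The 6 crypt and stem markers summed to 195, 179, 230.5 and 185 CPM in Dnmt3a fl/fl and 214, 202, 170 and 143 CPM in Dnmt3a ΔIEC, highest in the mouse with the highest members in each group. The 7 enterocyte markers ranged from 290 to 441 CPM in Dnmt3a fl/fl and from 337 to 488 CPM in Dnmt3a ΔIEC, and of the 35 tested markers of all cell types none passed the threshold in edgeR. The immune sum was 6.59 to 10.4 CPM and 9.15 to 11 CPM. Their part in the members' spread was not tested. Cdkn1a was far higher in the tissue than in Caco-2 cells and, with Cdkn2b, the highest member per exonic length in Dnmt3a fl/fl (110 and 50.8 CPM per kb). It had 269, 275, 190.5 and 240 CPM in Dnmt3a fl/fl and 188, 193, 247 and 227 CPM in Dnmt3a ΔIEC (log2 fold change -0.19, from -0.50 to 0.11, edgeR adjusted p = 0.565). Cdkn2b had 57.6 to 82.3 and 54.1 to 72.2 CPM (-0.15, edgeR adjusted p = 0.677).

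**Figure D5:**
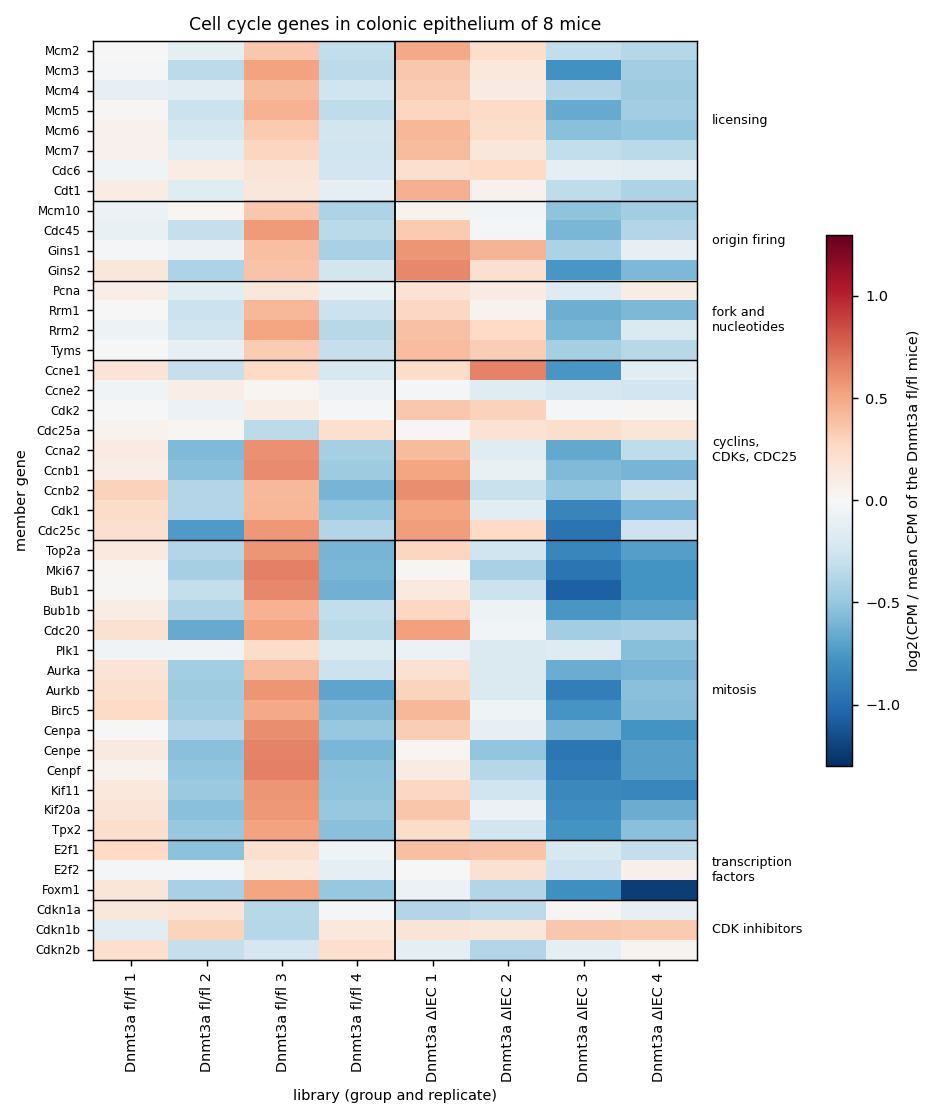
Level of each member (rows, grouped by role) in each of the 8 mice (columns), as log2 of its CPM over the mean CPM of the 4 Dnmt3a fl/fl mice, red for higher and blue for lower. Most rows are red in Dnmt3a fl/fl 3 and Dnmt3a ΔIEC 1 and blue in Dnmt3a fl/fl 4 and Dnmt3a ΔIEC 3 and 4, so each genotype holds both kinds of column. Cdc25a and Cdkn1b go the other way in Dnmt3a fl/fl 3 and Dnmt3a ΔIEC 3.

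Among the 137 other cell cycle genes tested in the mice, 1 passed the threshold. Cdkn1c had 5.999, 6.35, 7.57 and 8.01 CPM in Dnmt3a fl/fl and 14.4, 12.5, 18.6 and 13.6 CPM in Dnmt3a ΔIEC, with no overlap between the genotypes. Its log2 fold change was 1.08 (standard error 0.16, edgeR adjusted p = 0.0113). The mouse counts were made without regard to strand, and 7 of the 46 members overlap a gene on the other strand there, among them Mcm7, Cdc45 and Gins2. Where exons are shared, reads cannot be told apart from those of the partner. Overlap was taken over whole gene spans, introns included, so whether exons are shared was not checked.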

How the data were processed

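RNA sequencing counts of 15 Caco-2 and 8 mouse libraries were analysed. The authors deposited raw counts of reads per gene, not normalized: reads were trimmed (Trim Galore 0.4.4), aligned with STAR 2.5.2b to GRCh38 or GRCm38 and counted with featureCounts (1.5.2 with strand for Caco-2, 1.6.4 without strand for the mice, per the file headers). Groups came from the labels. Genes passing edgeR's filterByExpr were TMM-normalized and tested with edgeR 4.0.16 (limma 3.58.1, R 4.3.3) by its quasi-likelihood F test, each comparison on its own 2 groups. Calls needed a Benjamini-Hochberg adjusted p under 0.05 over all genes tested. DESeq2 1.42.0, other size factors, no filter, a log2 fold change of at least 1, 1 fit over all Caco-2 groups, each lane alone, a replicate block and leaving out each library were alternatives. Neighbours were the 50 tested genes flanking a member in chromosome order, not the 50 nearest by distance. Leaving out members by them was an alternative chosen after seeing the data.

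In simulated counts with 200 genes changed by 1 on the log2 scale and all others unchanged, the test recovered 90% in ΔDNMT3A against WT (16654 genes) and 63.5% in the mice (14626 genes). Unchanged genes made up 4.76% and 6.62% of the simulated calls. The median size of a member's log2 fold change was 0.18 and 0.15 in these comparisons, and recovery at that size was not measured. Members, gene lists and markers were chosen with earlier results of these data known. Named members are the 4 highest and 4 lowest past the threshold in each comparison, plus CDKN1A, CDKN1B, CDKN2B, MKI67, TOP2A and PCNA, and of the other cell cycle genes the 3 highest and 3 lowest, of which some are not reported here. Further members are named to describe their role. Reads carry no molecular identifiers. In Caco-2, 7 members overlap a gene on the same strand (MCM7, PCNA, CCNB2, TOP2A, BUB1B, CENPA and CDKN1B) and 17 one on the other strand. In the mice, 2 overlap a gene on the same strand (Cdt1 and Foxm1). No replicate pair was alike within sampling noise. The labels do not say whether replicates were separate cultures, so p-values measure the spread between these libraries.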

Additional observations from a re-analysis of the deposited data

Results flagged for a closer look

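Members were flagged if the isoform lines gave opposite calls against the same ΔDNMT3A libraries and the direct test of DNMT3A2 against DNMT3A1 passed the threshold. The rule thus required the direct call, and it held for 9 members. How many of all genes meet this rule was not counted. Lower than ΔDNMT3A in DNMT3A1, higher in DNMT3A2, were 7: the direct log2 fold change was 0.53 for MCM3, 0.67 for CDT1, 0.83 for MCM10, 0.42 for CCNA2, 0.57 for CCNB1, 0.38 for CCNB2 and 0.71 for BUB1B. RRM1 (-0.56) and CDKN1B (-0.30) were higher than ΔDNMT3A in DNMT3A1 and lower in DNMT3A2. Some of these changes against ΔDNMT3A were small. CCNB1 was at 0.05 (standard error 0.023) in DNMT3A2 beside -0.51 in DNMT3A1. CCNB2 was at -0.10 (standard error 0.032) in DNMT3A1 beside 0.27 in DNMT3A2.

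Single libraries stood far from the other 3 of their group in 3 of 130 groups of 4 libraries, over the 26 members named, where chance gives about 1 group in 20. MCM7 in DNMT3A2 replicate 4 was at 318.6 CPM, against 312.0, 312.2 and 313.0 CPM. GINS1 in DNMT3A2 replicate 1 was at 34.8 CPM, against 38.3, 38.5 and 38.8 CPM. CDC20 in WT replicate 2 was at 100.4 CPM, against 110.2, 110.5 and 111.9 CPM.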

How the results depend on the processing

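No called log2 fold change of a named member turned its direction under an alternative. Values near 0 that were not called did. In ΔDNMT3A against WT, TOP2A was at 0.010 in lane 6. In DNMT3A2 against DNMT3A1, PCNA ranged from -0.020 to 0.025 and MKI67 from -0.096 to 0.061 when leaving out 1 library. In lane 6, with 1 DNMT3A1 library, PCNA was at -0.021 and MKI67 at 0.13. With a log2 fold change of at least 1, members higher and lower were 1 and 0 of 1 called (ΔDNMT3A against WT), 0 and 1 of 1 (DNMT3A1 against ΔDNMT3A), 0 and 2 of 2 (DNMT3A2 against ΔDNMT3A), 0 and 1 of 1 (DNMT3A2 against DNMT3A1), 1 and 0 of 1 (DNMT3A1 against WT) and 0 and 1 of 1 (DNMT3A2 against WT). In DNMT3A1 against ΔDNMT3A the higher count of 3 became 5 with all 4 groups in 1 fit and 5 with lane 5 alone, and ranged from 3 to 5 when leaving out 1 library. With at least 1 on the log2 scale only CENPA was left in ΔDNMT3A against WT, DNMT3A2 against DNMT3A1 and DNMT3A1 against WT. No balance of higher to lower can be read from 1 member. Of all genes tested, 8.35% to 13.2% had a log2 fold change of at least 1 across the Caco-2 comparisons. Without members whose neighbours moved, ΔDNMT3A against WT turned to 17 higher and 15 lower, DNMT3A2 against DNMT3A1 had 22 calls with 1 lower, DNMT3A1 against WT 3 higher and DNMT3A2 against WT 10 lower and 17 higher, which turned its balance too. The replicate numbers did not pair the Caco-2 libraries, as deviations of same-numbered libraries correlated by -0.03 to 0.06 over 21 pairs. With the replicate block the counts higher and lower were 18 and 21, 4 and 34, 14 and 23, 29 and 7, 5 and 35, and 17 and 19, in the order above, and the block changed no call of a named member. In the mice no paired analysis was possible because the numbers only follow the order of deposit. Of the named members' values, leaving out 1 library ended 10 calls and added 5, and DESeq2 ended 1 of 80. Lane 5 alone ended the calls of MKI67 in DNMT3A1 against ΔDNMT3A (-0.10) and TOP2A in DNMT3A2 against WT (0.07). It added TOP2A in DNMT3A1 against ΔDNMT3A (0.11) and MKI67 in DNMT3A2 against DNMT3A1 (-0.10). Lane 6 alone ended the call of CDKN2B in ΔDNMT3A against WT (-0.48). With 1 DNMT3A1 library in lane 6, CDKN2B was at -0.21 in DNMT3A1 against ΔDNMT3A and CDKN1A at -0.21 in DNMT3A1 against WT. There TOP2A was at 0.08 in DNMT3A2 against DNMT3A1. The fit of all 4 groups added TOP2A in DNMT3A1 against ΔDNMT3A (0.07) and CDKN2B in DNMT3A2 against DNMT3A1 (0.39).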
